A study of Mus musculus with 5 samples.

Results

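The carnitine shuttle carries long-chain fatty acids into the mitochondrial matrix, and 6 of its genes were followed here across 5 libraries of mouse hepatocytes. They were taken by symbol: the carnitine transporter Slc22a5, the carnitine acyltransferases Cpt1a, Cpt2, Crat and Crot, and the carnitine-acylcarnitine translocase Slc25a20. All 6 symbols were among the 13966 of the table, and all 6 reached the lowest mean level at which 8973 genes were analysed. The hepatocytes came from livers of ICR mice, an outbred stock, that had been given a fluorescent probe for fatty acid oxidation, and were sorted by its signal. Control mice gave a probe-negative and a probe-positive library. Mice given bezafibrate, a fibrate drug that activates peroxisome proliferator-activated receptors (PPARs), gave a negative, a positive and a high library. Each group has 1 library. The dose and duration of bezafibrate, the age and sex of the mice, the number of animals behind a library and whether the gates came from the same liver are not given. Treatment and animal therefore cannot be told apart.

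Long-chain acyl-CoA does not cross the inner mitochondrial membrane. Cpt1a, on the outer membrane, exchanges the CoA for carnitine and is held in check by malonyl-CoA. Slc25a20 carries the acylcarnitine inward in exchange for free carnitine, and Cpt2, on the matrix face of the inner membrane, restores the acyl-CoA for beta-oxidation. Slc22a5 brings carnitine into the cell. Crat acts on acetyl and other short acyl groups, and Crot on medium-chain acyl groups made in peroxisomes, so that both let acyl groups leave an organelle as carnitine esters. In liver, genes of fatty acid oxidation, among them shuttle genes, are known targets of PPARalpha.

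On the deposited scale, Cpt2 and Slc25a20 were at least 1.5-fold higher with bezafibrate than in control mice in both gates. Of all genes, 22.6% in the negative and 15.7% in the positive gate were that much higher. In the positive gate both members stayed higher but fell short of 1.5-fold under some other pseudocounts or scalings. By the deposited values, Crot and Slc22a5 were also higher in all 3 bezafibrate libraries than in both control libraries, by less. The counting intervals of Slc22a5 overlapped in every library, and that of Crot in bezafibrate positive overlapped both control libraries. Scaling by totals without Rn45s, the ribosomal RNA precursor, did not keep this order. The ratio of bezafibrate to control was then 0.886 for Slc22a5 in the negative gate and 0.945 for Crot in the positive gate. Cpt1a, Crat and Slc22a5 lay within 1.25-fold from their lowest to their highest library, and Crot within 1.32-fold. Values are normalised read counts as deposited, that is, reads divided by a factor for each library. Differences are given on the scale log2(value + 1.004), whose pseudocount understates differences of low genes. Ratios divide one deposited value by another. Their 95% intervals are exact (Clopper-Pearson), were taken from the recovered reads and cover counting error only. With 1 library per group there are no replicates to check a difference against, and the ratios carry no p-value. In sorted bulk samples, fewer cells of a type and less RNA per cell cannot be told apart.

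The libraries held 5056884 to 7146578 recovered reads and differed in make-up. Rn45s, the ribosomal RNA precursor, took 34.8% to 36.3% of the control columns and 10.5% to 18.5% of the bezafibrate columns. It thus moved with treatment and, among the bezafibrate libraries, with the gate. The results were recomputed with totals that leave it out: scaling by column totals without Rn45s shifted the median of all genes by -0.24 in the negative gate and -0.11 in the positive gate of bezafibrate minus control, while totals with Rn45s shifted it by 0.22 and 0.20. All 10 hepatocyte markers had rows and moved with treatment in sum, at 47182 and 45949 in the control negative and positive and 107126, 76670 and 84319 in the bezafibrate negative, positive and high libraries, of which Alb, the albumin gene, held 23064 to 72188. Single hepatocyte markers were mixed. Between the negative libraries 5 of the 10 were at least 1.5-fold higher with bezafibrate, against 22.6% of all genes. Lower by as much was 1, Hnf4a at 0.618-fold, against 17.5% of all genes. Between the positive libraries these counts were 4 and 0, against 15.7% and 11.6%. The part of these markers in the members' values was not tested. Summed markers of other cells were far below those of hepatocytes. They were 5.83 to 10.4 for Kupffer cells and macrophages (6 of 10 with rows), 18.9 to 34.4 for sinusoidal endothelium (7 of 8) and 2.80 to 13.1 for cholangiocytes (4 of 6). Stellate cell markers (7 of 8) summed to 102.2 and 111.0 in the control and 30.9 to 40.0 in the bezafibrate libraries, of which Reln alone held 28.5 to 105.8. Rows were present for 0 of 5 T and NK cell markers and 0 of 4 B cell markers. Clec4f, Pecam1 and Krt19 were each at or below 1.73 in these libraries, but other markers of the same lists were higher. Stab2 of sinusoidal endothelium had 12.7 to 22.1, beside 12.9 to 16.1 for the member Slc22a5. Sox9 of cholangiocytes reached 7.73, Stab1 of sinusoidal endothelium 6.78 and Cd68 of macrophages 5.39. Erythroid markers (2 of 5) summed to 25.3 and 24.1 in the control and 33.1 to 45.5 in the bezafibrate libraries, nearly all of it Alas2, and the neutrophil gene Csf3r (1 of 4) stayed at or below 1.58.

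**Figure D1:**
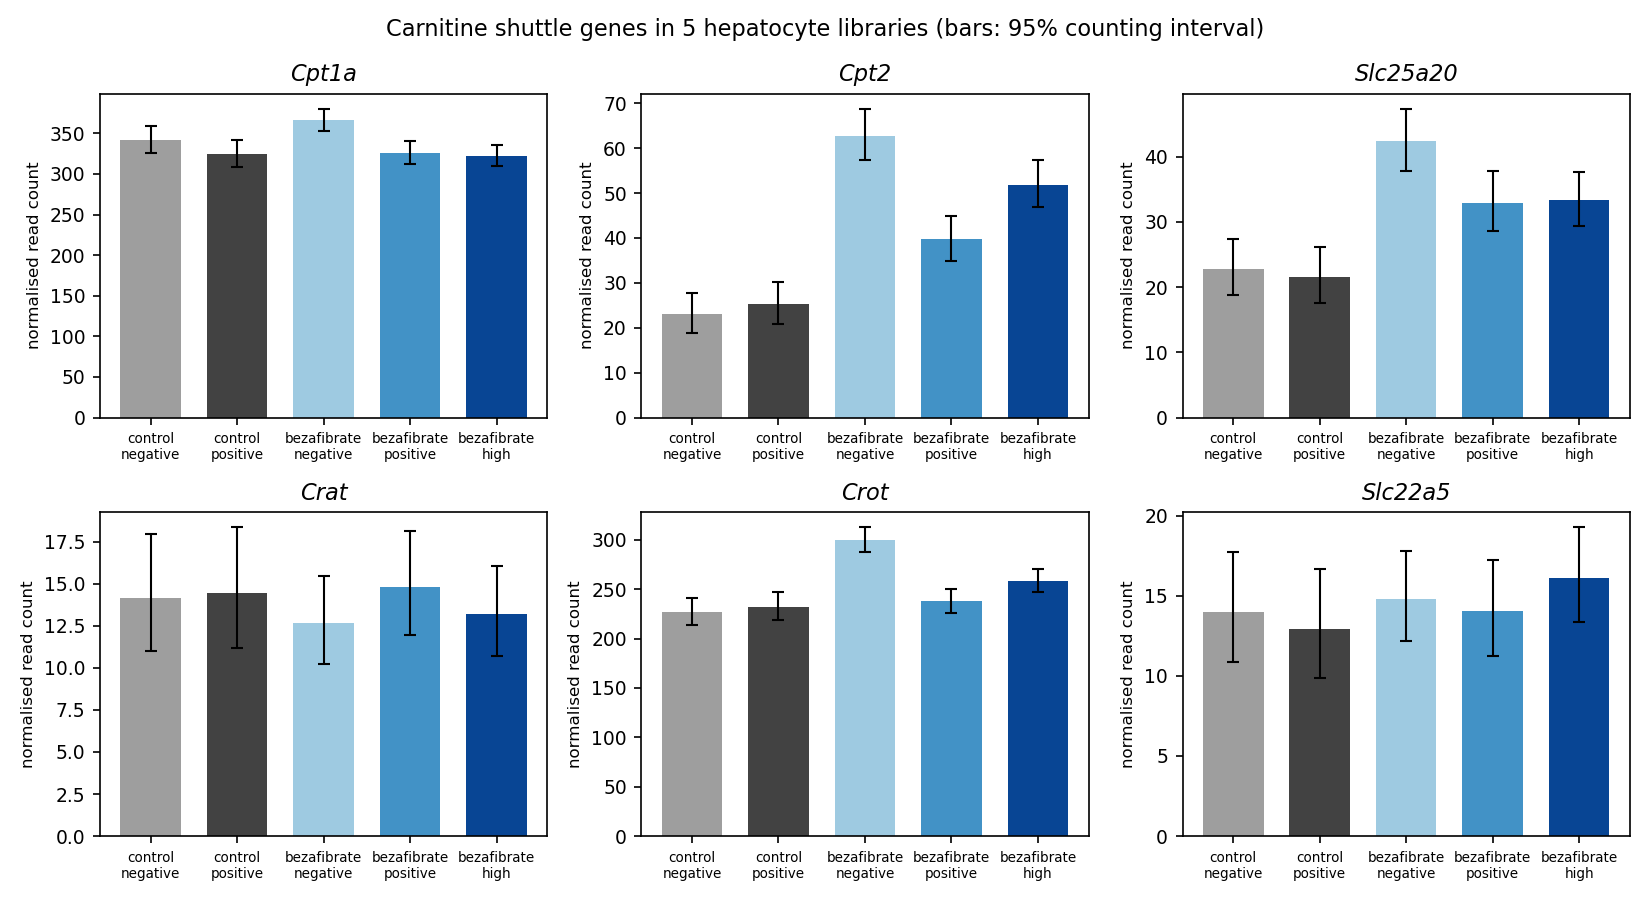
Normalised read count (y axis, from 0) of each shuttle gene in each of the 5 libraries (x axis), with 95% counting intervals as error bars. Cpt2 and Slc25a20 stand higher in all 3 bezafibrate libraries than in both control libraries, whereas the Cpt1a bars run only from 323 to 366.

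The members differed widely in abundance. Levels between genes are compared per kilobase of the longest annotated transcript. On that scale Crot, at 75.8 to 100.1 per kilobase, and Cpt1a, at 74.8 to 84.8, were the highest. In control negative Cpt1a stood above Crot (79.3 against 75.8), and in the other 4 libraries Crot stood above Cpt1a. Cpt2 followed at 9.69 to 26.5, Slc25a20 at 7.84 to 15.4, Slc22a5 at 4.22 to 5.27 and Crat at 2.998 to 3.51, and this order held in all 5 libraries. By mean normalised read count, Cpt1a ranked 288 and Crot 403 among the 8973 genes, while Cpt2 ranked 2905, Slc25a20 3657, Slc22a5 5987 and Crat 6096. Reads limited the precision: Crat had 67 to 99 reads in a library and Slc22a5 60 to 121, against 1508 to 2747 for Cpt1a.

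The carnitine transporter Slc22a5 (ENSMUSG00000018900.7, GRCm38 chromosome 11, 53864542 to 53891660, minus strand) was low and nearly level. Its normalised read counts were 14.0 in control negative and 12.9 in control positive. With bezafibrate they were 14.8 in the negative, 14.0 in the positive and 16.1 in the high gate. The high gate had the highest value and control positive the lowest, and all 5 counting intervals overlapped. For bezafibrate over control the ratio was 1.06 (0.777 to 1.46) in the negative gate and 1.08 (0.773 to 1.53) in the positive gate. At this depth, differences inside these intervals were not detectable.

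Cpt1a (ENSMUSG00000024900.5, chromosome 19, 3322334 to 3385733, plus strand), the malonyl-CoA-sensitive entry step, had normalised read counts of 342 in control negative and 325 in control positive. In the bezafibrate libraries it had 366 in negative, 326 in positive and 323 in high. Bezafibrate negative was the highest library, and the other bezafibrate libraries lay beside control positive. The range over the libraries was 0.18 on the log2 scale, smaller than in all but 2.89% of genes, where the median gene ranged over 0.63. That share is not matched for abundance. Counting error widens the range of genes with few reads, and Cpt1a had 1508 to 2747. Between negative libraries the ratio of bezafibrate to control was 1.07 (1.01 to 1.14), and between positive ones it was 1.004 (0.939 to 1.07). These directions depend on the scaling: the log2 difference of 0.10 in the negative gate was -0.16 with column totals without Rn45s and 0.33 with column totals. In the positive gate the difference of 0.01 likewise ran from -0.11 to 0.21. Without Rn45s in the totals the ratio in the negative gate was 0.894 (0.841 to 0.951).

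The translocase Slc25a20 (ENSMUSG00000032602.6, chromosome 9, 108662088 to 108684641, plus strand) had normalised read counts of 22.8 in control negative and 21.6 in control positive. With bezafibrate it had 42.4 (negative), 32.9 (positive) and 33.3 (high). The 3 bezafibrate libraries lay above both control libraries, and their counting intervals did not overlap those of the control libraries. Bezafibrate over control gave 1.86 (1.49 to 2.33) between the negative libraries and 1.53 (1.20 to 1.96) between the positive ones.

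Cpt2 (ENSMUSG00000028607.16, chromosome 4, 107903981 to 107923610, minus strand), the matrix-side acyltransferase, varied most. Its normalised read counts were 23.0 in control negative and 25.2 in control positive, from 112 and 117 reads. With bezafibrate the negative library had 62.8, the positive 39.7 and the high 51.8, from 471, 252 and 389 reads. Again the bezafibrate and control libraries did not overlap. The ratio to control was 2.73 (2.22 to 3.39) for the negative gate and 1.57 (1.26 to 1.98) for the positive gate. The range of Cpt2 over the libraries, 1.41 on the log2 scale, was wider than that of 92.3% of genes, and that of Slc25a20, 0.94, wider than 75.3%.

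The sequences before the RefSeq transcription starts of Cpt2 and Slc25a20, which were higher together under bezafibrate, are shown beside that of Cpt1a, which was nearly level. They come from RefSeq windows on GRCm38.p6, cut at the first base that an annotated exon covers, and read 5′ to 3′ on the strand of the gene. RefSeq windows were found for 5 of the 6 members. The Cpt2 stretch is chr4:107923611-107923839 (minus strand), the Slc25a20 stretch chr9:108661886-108662087 (plus strand) and the Cpt1a stretch chr19:3323051-3323284 (plus strand). The Cpt1a stretch lies inside the annotated gene, in the first intron of another transcript that starts at 3322334. Capitals mark the GC box GGGCGG and the single repeat AGGTCA, each on either strand.
Cpt2: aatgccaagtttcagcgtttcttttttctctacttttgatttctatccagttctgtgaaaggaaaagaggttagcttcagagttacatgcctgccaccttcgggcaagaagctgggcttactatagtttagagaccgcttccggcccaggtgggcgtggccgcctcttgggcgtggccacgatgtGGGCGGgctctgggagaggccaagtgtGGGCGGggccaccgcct
Slc25a20: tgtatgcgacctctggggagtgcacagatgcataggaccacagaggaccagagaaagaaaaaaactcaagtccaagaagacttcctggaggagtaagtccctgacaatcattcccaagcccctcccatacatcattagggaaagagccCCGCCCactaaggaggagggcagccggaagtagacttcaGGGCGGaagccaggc
Cpt1a: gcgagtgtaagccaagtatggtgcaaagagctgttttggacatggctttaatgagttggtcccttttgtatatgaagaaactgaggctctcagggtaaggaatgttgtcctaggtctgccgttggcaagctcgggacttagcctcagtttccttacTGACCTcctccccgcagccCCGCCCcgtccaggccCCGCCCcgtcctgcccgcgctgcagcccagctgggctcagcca
PPAR with its partner RXR binds a direct repeat of AGGTCA with 1 base between, searched as AGGTCANAGGTCA on both strands, a motif that contains the single repeat. Over the whole 300-base windows there were 0 matches in all 5 genes, and 0.0396% of 32851 mouse windows hold it. The single repeat AGGTCA occurred 1 time in the window of Cpt1a and 0 times in those of Cpt2, Slc25a20, Crot and Slc22a5, where 16.3% of windows hold it. Over the whole windows, which run past the stretches shown, GC boxes occurred 3 times each in the windows of Cpt1a, Cpt2 and Slc25a20, 2 times in Crot and 5 times in Slc22a5, and 35.7% of windows hold at least 1. No match says only that these letters are not in this window, and a match is not a measured binding site.

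Crot (ENSMUSG00000003623.4, chromosome 5, 8966033 to 8997324, minus strand), the peroxisomal carnitine octanoyltransferase, had normalised read counts of 227 in control negative and 232 in control positive. With bezafibrate the negative library had 299.9, the positive 238 and the high 259. The bezafibrate negative library stood apart from the others, and bezafibrate positive overlapped both control libraries in its counting interval. The bezafibrate-to-control ratio was 1.32 (1.23 to 1.42) between negative libraries and 1.02 (0.946 to 1.11) between positive ones. The log2 difference of 0.40 in the negative gate ran from 0.14 without Rn45s in the totals to 0.63 with column totals, the second past 1.5-fold.

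Crat (ENSMUSG00000026853.15, chromosome 2, 30400471 to 30415813, minus strand), carnitine acetyltransferase, had normalised read counts of 14.2, 14.4, 12.7, 14.8 and 13.2 for the control negative and positive and then the bezafibrate negative, positive and high libraries. The lowest value was that of bezafibrate negative, the library in which Cpt1a, Cpt2, Slc25a20 and Crot were highest, and all 5 counting intervals overlapped. Its ratio of bezafibrate to control was 0.894 (0.649 to 1.24) for the negative and 1.03 (0.742 to 1.42) for the positive gate. Exons of Crat overlap exons of Dolpp1 on the opposite strand, and no source used here says whether the counting used strand. Reads of these genes may therefore be mixed. Exons of Crot overlap 2 provisional genes, and those of the other 4 members overlap no other annotated gene.

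Taking the treatment comparison over the set, 2 of 6 members were at least 1.5-fold higher in the negative gate, Cpt2 and Slc25a20, and 0 were that much lower. Among all genes 22.6% were that much higher and 17.5% lower, so the count says little about the set. At least 2-fold, 1 member was higher, Cpt2, against 10.2% of all genes, and 0 lower, against 5.86%. In the positive gate the same 2 members passed 1.5-fold upward and 0 downward, against 15.7% and 11.6% of all genes, and 0 passed 2-fold in either direction, against 4.94% and 2.91%. The median of the 6 was 0.25 in the negative gate, where all genes had 0.02, and 0.07 in the positive gate, where all genes had 0.00. Of all genes, 4.10% had a larger positive difference than Cpt2 in the negative gate and 14.0% in the positive gate. For Slc25a20 these shares were 13.6% and 15.6%. The negative and positive gate comparisons share no library, but treatment and animal are the same split in both.

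Both genes were past 1.5-fold in the negative gate under each of 6 other pseudocounts and scalings, with log2 differences of 1.16 to 1.64 for Cpt2 and 0.62 to 1.09 for Slc25a20. TMM factors recomputed with edgeR gave the deposited scaling itself and are not counted among these. In the positive gate they stayed higher but not always past 1.5-fold, a log2 difference of 0.58. Cpt2 had 0.52 to 0.83 and Slc25a20 0.48 to 0.79. Differences also ran with transcript length. Genes in the fifth with the shortest transcripts had a median difference of 0.39 in the negative gate and 0.25 in the positive gate, and those in the fifth with the longest -0.14 and -0.10. In the fifth next to the shortest, which holds Cpt2, Slc25a20, Crot and Slc22a5, the medians were 0.10 and 0.04, and in the fifth that holds Cpt1a and Crat -0.07 and -0.05. The part of transcript length in the members' differences was not tested.

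**Figure D2:**
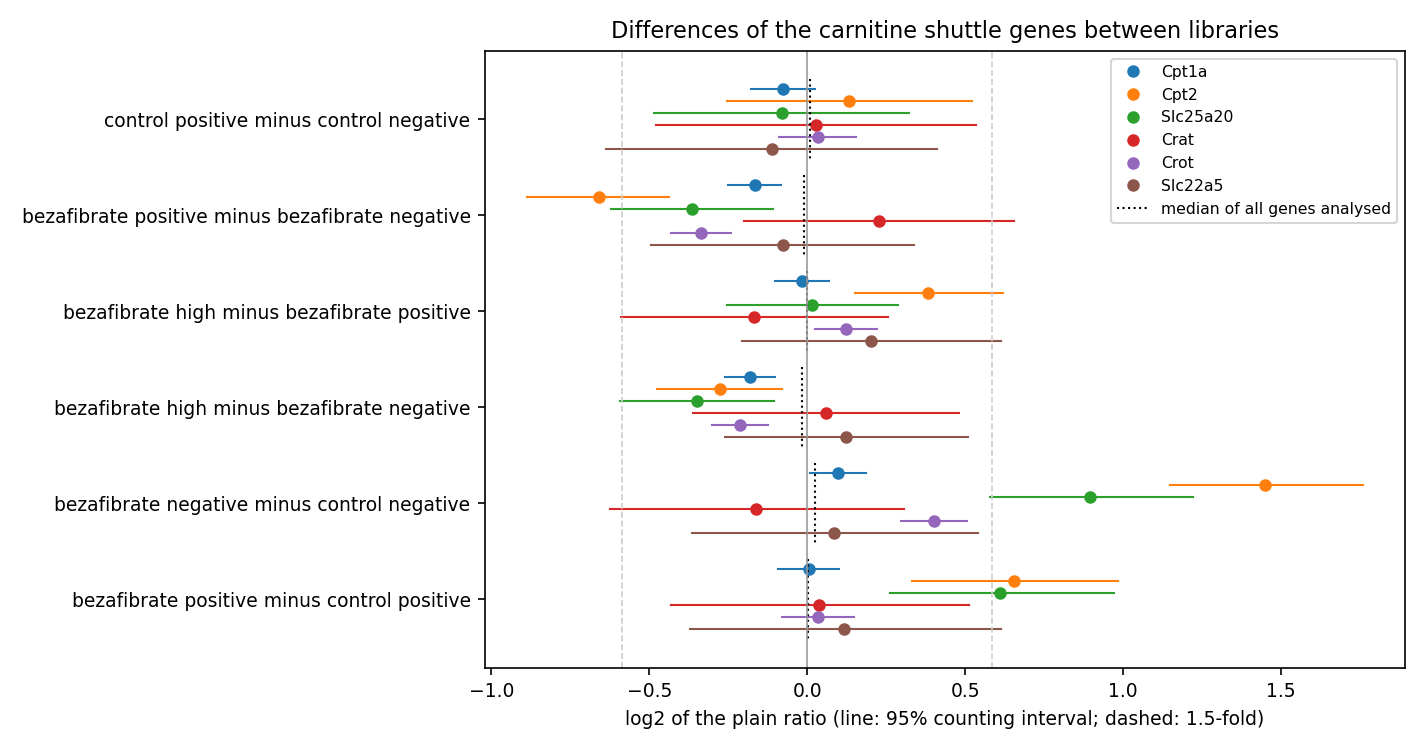
Log2 of the plain ratio (x axis) of each shuttle gene in the 6 comparisons of libraries (y axis), with 95% counting intervals as lines, dotted lines at the median of all genes analysed and dashed lines at 1.5-fold. Cpt2 and Slc25a20 lie past 1.5-fold in both comparisons of bezafibrate with control, and Cpt2 lies past 1.5-fold on the lower side between the positive and negative gates of bezafibrate mice.

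Between the gates of control mice the shuttle genes were level. Normalised read counts of Cpt2 were 25.2 in the positive and 23.0 in the negative library, a ratio of 1.10 (0.839 to 1.43), and those of Slc25a20 21.6 and 22.8, a ratio of 0.946 (0.715 to 1.25). Crot, at 1.02-fold (0.940 to 1.11), and Cpt1a, at 0.949-fold (0.885 to 1.02), gave the narrowest intervals. Crat was 1.02-fold (0.717 to 1.45) and Slc22a5 0.926-fold (0.644 to 1.33). For 0 of 6 members did the counting interval leave out 1, whereas it lay above 1 for 4.93% and below 1 for 4.41% of all genes. At least 1.5-fold, 0 members were higher, against 1.77% of all genes, and 0 lower, against 1.6%. A ratio below 0.885 for Cpt1a lies outside its counting interval, while the intervals of Crat and Slc22a5 reach from 0.644 to 1.45. Markers of liver zones moved with the gate in control mice: the 7 analysed pericentral genes were all higher in the positive library (median 0.22) and the 8 periportal genes all lower (median -0.15), by any amount. The median of all genes was 0.01. For bezafibrate minus control, pericentral medians were 0.17 in the negative and -0.20 in the positive gate. Periportal medians were 0.57 and 0.61 in these zone markers. Their part in the members' values was not tested.

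Between the gates of bezafibrate mice, 5 of 6 shuttle genes had lower values in the positive than in the negative library. The median of the 6 was -0.25 on the log2 scale, against -0.01 for all genes. Many other lists moved alike: the median was -0.29 for matrix beta-oxidation, -0.28 for acyl-CoA supply and -0.23 for the hepatocyte markers, of which 8 of 10 were lower. It was -0.30 for textbook target genes of PPARalpha, -0.22 for peroxisomal genes and -0.15 for other mitochondrial carriers. Periportal markers had -0.20 and pericentral markers -0.14. Others did not, with 0.03 for malonyl-CoA and AMP-activated kinase control, 0.04 for PPARs and their co-regulators and -0.05 for other carnitine genes. The genes with the shortest transcripts, a group that holds no member, had a median of -0.13. The length group of Cpt2, Slc25a20, Crot and Slc22a5 had -0.04, and that of Cpt1a and Crat 0.02. The part of these in the members' values was not tested. Cpt2 had 39.7 against 62.8, a ratio of 0.633 (0.541 to 0.739), and 1.64% of all genes had a larger negative difference. It was the only member at least 1.5-fold lower, where 2.64% of all genes were, and 0 members were that much higher, where 2.06% were. Slc25a20 was 0.777-fold (0.649 to 0.928), Crot 0.793-fold (0.742 to 0.847), Cpt1a 0.891-fold (0.841 to 0.944) and Slc22a5 0.948-fold (0.709 to 1.26). Crat was 1.17-fold (0.870 to 1.57). The counting interval lay below 1 for 4 of 6 members, against 18.6% of all genes, and above 1 for 0 members, against 13.7%. Rn45s was 174815 in the positive and 99961 in the negative library. With Rn45s left out of the totals, Cpt2 had a log2 difference of -0.50, short of 1.5-fold, Slc25a20 -0.21, Crot -0.19 and Cpt1a -0.02, and Slc22a5 turned from -0.07 to 0.07. On that scale the intervals of Slc25a20 (0.719 to 1.03) and Cpt1a (0.932 to 1.05) held 1, and those of Cpt2 (0.599 to 0.818) and Crot (0.822 to 0.938) did not.

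The high gate stood between the positive and the negative gates of bezafibrate mice for Cpt2, Slc25a20, Crot and Crat. For Slc25a20 this order turned without Rn45s in the totals, where high minus positive went from 0.02 to -0.02. Over the positive gate Cpt2 was 1.30-fold higher (1.11 to 1.54), and 4.23% of all genes had a larger positive difference. Crot was 1.09-fold higher (1.02 to 1.16), or 1.06-fold (0.994 to 1.14) without Rn45s in the totals. The intervals of the other 4 members held 1, with Slc25a20 at 1.01-fold (0.838 to 1.22), Cpt1a at 0.989-fold (0.932 to 1.05), Crat at 0.890-fold (0.665 to 1.19) and Slc22a5 at 1.15-fold (0.867 to 1.53). An interval above 1 was found for 2 of 6 members and for 8.21% of all genes, one below 1 for 0 members and 7.75% of all genes, and 0 members reached 1.5-fold in either direction, against 0.802% higher and 0.97% lower. Against the negative gate, the high gate was lower for Slc25a20 at 0.786-fold (0.663 to 0.930), Cpt2 at 0.826-fold (0.720 to 0.946), Crot at 0.863-fold (0.811 to 0.917) and Cpt1a at 0.881-fold (0.834 to 0.931). The interval lay below 1 for these 4 of 6 members and for 16.9% of all genes, and above 1 for 0 members and 12.2% of all genes. At least 1.5-fold higher or lower were 0 members, against 1.5% and 2.28% of all genes. Without Rn45s in the totals the ratios to the negative gate were 0.851 (0.718 to 1.01) for Slc25a20, 0.894 (0.780 to 1.02) for Cpt2, 0.935 (0.879 to 0.993) for Crot and 0.955 (0.903 to 1.01) for Cpt1a, so that only the interval of Crot among these 4 left out 1. Comparisons of the bezafibrate gates share libraries, so these values are not separate evidence.

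The gate difference was set against itself in both treatments. For Cpt2 the positive-over-negative ratio under bezafibrate divided by that in control mice was 0.577 (counting interval 0.427 to 0.779), and 2.99% of all genes had a lower value of this difference. For Crot it was 0.775 (0.697 to 0.862). For Slc25a20 it was 0.822 (0.596 to 1.13), for Cpt1a 0.939 (0.858 to 1.03), for Crat 1.15 (0.738 to 1.78) and for Slc22a5 1.02 (0.656 to 1.60), with intervals that held 1. At least 1.5-fold lower was 1 of 6 members, Cpt2, against 7.37% of all genes, and 0 were that much higher, against 5.85%. These intervals carry no variation between animals or sorts.

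Ratios of members within a library do not depend on the scaling between libraries. They can still carry the trend with transcript length. For bezafibrate minus control in the negative gate, the length group of Cpt2, Slc25a20, Crot and Slc22a5 had a median of 0.10. That of Cpt1a and Crat had -0.075. The part of this trend in the ratios was not tested. For each Cpt1a read, control negative had 0.0671 Cpt2 reads (0.0550 to 0.0813) and control positive 0.0776 (0.0637 to 0.0937). With bezafibrate the negative library had 0.171 (0.155 to 0.189), the positive 0.122 (0.106 to 0.139) and the high 0.161 (0.144 to 0.179). The 3 bezafibrate libraries thus lay above both control libraries without overlap of the intervals, and bezafibrate positive lay below the other bezafibrate libraries. Slc25a20 reads per Cpt1a read were 0.0665 and 0.0663 in control negative and positive. With bezafibrate they were 0.116 (negative), 0.101 (positive) and 0.103 (high), with intervals from 0.0872 to 0.130 against 0.0536 to 0.0812 in the control libraries. Crot reads per Cpt1a read ran from 0.663 (0.614 to 0.716) in control negative to 0.819 (0.774 to 0.866) in bezafibrate negative, and those of control positive, at 0.715, and bezafibrate positive, at 0.729, overlapped. Crat, at 0.0346 to 0.0454, and Slc22a5, at 0.0398 to 0.04996, kept overlapping intervals in all 5 libraries. Slc25a20 reads per Cpt2 read were 0.991 (0.755 to 1.30) and 0.855 (0.648 to 1.13) in the control libraries and 0.675 (0.584 to 0.780), 0.829 (0.687 to 1.0003) and 0.643 (0.546 to 0.755) in the bezafibrate libraries, given as negative, positive, high. Of the 6 genes' summed normalised read counts, not scaled for length, Cpt1a held 51.5% to 53.2% in the control and 45.8% to 49.0% in the bezafibrate libraries, and Cpt2 3.57% to 3.99% and 5.97% to 7.86%.

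**Figure D3:**
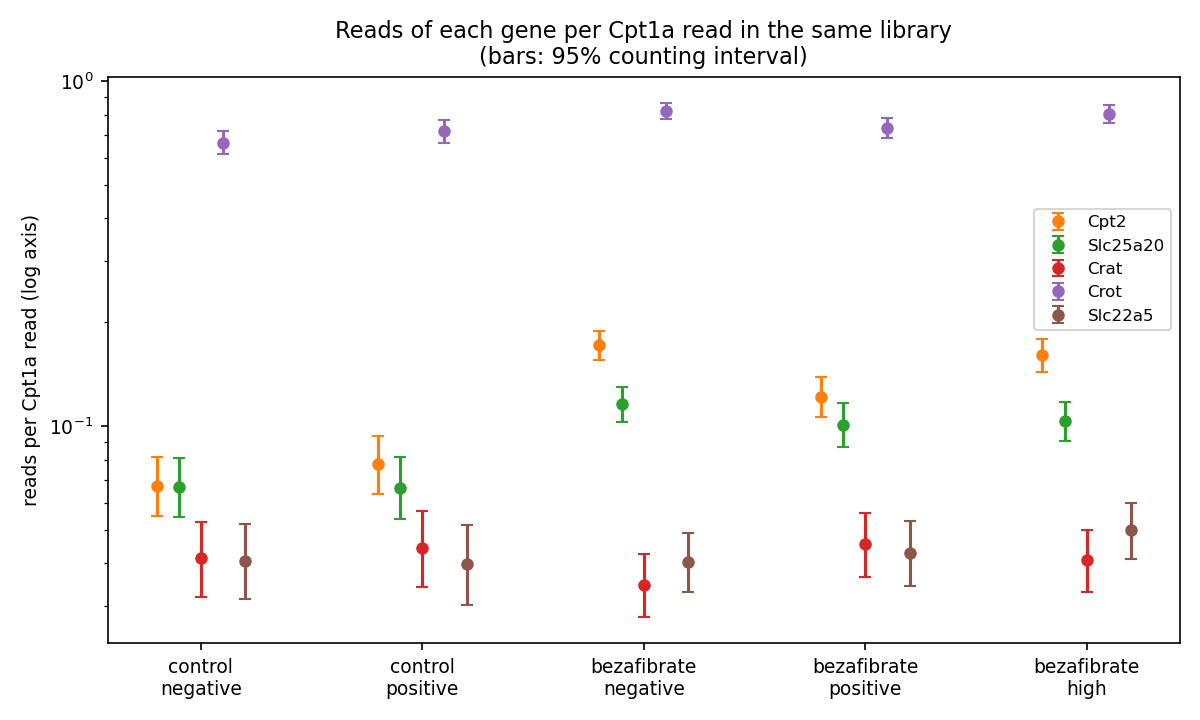
Reads of Cpt2, Slc25a20, Crat, Crot and Slc22a5 per Cpt1a read in the same library (y axis, log scale) for the 5 libraries (x axis), with 95% counting intervals. The Cpt2 points move from 0.0671 and 0.0776 in the control libraries to between 0.122 and 0.171 in the bezafibrate libraries, while those of Crat and Slc22a5 stay between 0.0346 and 0.04996.

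Genes with the most similar profile over the 5 libraries were named by the root mean square difference of centred log2 values, which describes these libraries and says nothing of shared function. For Cpt2 they were Idh2, mitochondrial isocitrate dehydrogenase, at a distance of 0.04, Hsd17b12, an enzyme of fatty acid elongation, at 0.04, and Vma21 at 0.05. Idh2 had 24.0, 26.3, 62.1, 43.0 and 52.9 where Cpt2 had 23.0, 25.2, 62.8, 39.7 and 51.8. For Slc25a20 they were Sdc2 at 0.02, Ces3a at 0.03 and Ywhah at 0.03, and for Crot they were Tgoln2, Cpn1 and Cyp2c40 at 0.02 to 0.03. Cyp2c40 has near-identical copies, so its reads are uncertain. For Cpt1a they were Hipk3, Prkag1 and Mier3 at 0.02 to 0.03, for Crat Zfp644, Nr2c2 and Nbas at 0.02 to 0.03, and for Slc22a5 Slc9a3r1, Cdk5rap3 and Top3a at 0.01 to 0.03. Level profiles are common: 568 genes lay within 0.1 of Cpt1a, 627 of Crat and 448 of Slc22a5, against 44 of Cpt2, 299 of Slc25a20 and 425 of Crot.

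Other carnitine genes moved in both directions. Of the 9 listed, 7 had rows and 4 were analysed. Bbox1, the last enzyme of carnitine synthesis, stood at 10.9 (negative) and 9.27 (positive) in control mice, and its bezafibrate values were 49.5 (negative), 38.8 (positive) and 39.8 (high). Bezafibrate over control was 4.54-fold (3.40 to 6.18) for the negative libraries and 4.18-fold (3.02 to 5.93) for the positive ones. Aldh9a1, an earlier enzyme of that synthesis, was 2.09-fold (1.83 to 2.40) and 1.84-fold higher (1.59 to 2.14). Cpt1b, the muscle form of the entry enzyme, ran the other way with 16.8, 20.7, 7.998, 15.1 and 10.5 in the same order, or 0.475-fold (0.335 to 0.671) and 0.731-fold (0.545 to 0.980). Its exons overlap a read-through gene, Gm44502, on the same strand, so these reads are not certain to be Cpt1b. Per transcript length, Cpt1b lay below Cpt1a in each library, at 0.0326 to 0.0949 of its level. Slc25a29 had 5.13 and 3.23 in the control and 5.47 to 6.30 in the bezafibrate libraries. Cpt1c, the brain form, was listed at 0 in 2 libraries and at or below 0.473 in the others, and Slc22a4, a related transporter, stayed at or below 4.40.

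The steps before and after the shuttle were set beside it, from lists fixed for this work. For these counts, the shares of all genes past 1.5-fold are 22.6% (higher) and 17.5% (lower) between the negative libraries. Between the positive libraries they are 15.7% and 11.6%. Of 18 analysed genes of matrix beta-oxidation, which take the acyl-CoA that Cpt2 releases, 12 were at least 1.5-fold higher in the negative gate and 11 in the positive gate, and 0 lower. Their medians were 1.28 and 0.88. Hadha, a subunit of the trifunctional protein, was 2.76-fold higher (2.51 to 3.05) and 2.25-fold higher (2.03 to 2.51), and Acaa2, the medium-chain thiolase, 2.48-fold and 2.13-fold. The ratio of Cpt2 in the negative gate, 2.73, lay close to that of Hadha, and the ratio of Cpt1a, 1.07, below 16 of these 18 genes. Eci2, at 0.732-fold, and Acad9, at 0.790-fold, were the others, and Acad9 is also an assembly factor of respiratory complex I.

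Of 12 genes of fatty acid uptake and activation, which feed Cpt1a, 7 were at least 1.5-fold higher in each gate, against 22.6% and 15.7% of all genes, with 0 lower in the negative and 1 lower in the positive gate. The medians were 0.98 and 0.68. Acsl1, the main long-chain acyl-CoA synthetase of liver, had 1526 and 1542 in control negative and positive against 1166 (negative), 995 (positive) and 996 (high) with bezafibrate. Acsl5 ran the other way, at 2.50-fold (2.26 to 2.76) and 1.78-fold (1.61 to 1.97), as did Dbi, the acyl-CoA binding protein, at 5.52-fold (4.66 to 6.58) and 2.87-fold (2.41 to 3.43). Slc27a2, a very long-chain acyl-CoA synthetase, was 1.25-fold (1.20 to 1.29) and 1.38-fold (1.33 to 1.43).

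The genes listed for control of malonyl-CoA, the inhibitor of Cpt1a, gave mostly counts near or below the shares of all genes given above. The count of lower genes in the positive gate, 2 of 11, lay above the 11.6% of all genes. Of 11 genes of malonyl-CoA and AMP-activated kinase control, 1 was at least 1.5-fold higher and 2 lower in each gate, with medians of 0.01 and -0.12. Acacb, the acetyl-CoA carboxylase linked to mitochondria, was 0.857-fold (0.798 to 0.920) and 0.808-fold (0.751 to 0.870), and Acaca 0.706-fold (0.661 to 0.755) and 0.726-fold (0.675 to 0.780). Mlycd, malonyl-CoA decarboxylase, was 1.30-fold (1.09 to 1.56) and 1.29-fold (1.07 to 1.55). The kinase subunit Prkab2 was the gene past 1.5-fold upward, at 3.31-fold (2.21 to 5.12) and 3.72-fold (2.58 to 5.51), while Prkag2 was 0.556-fold and 0.623-fold and Stk11 0.570-fold and 0.637-fold. Of 17 peroxisomal genes, whose products Crot acts on, 8 were at least 1.5-fold higher in the negative gate and 4 in the positive gate, against 22.6% and 15.7% of all genes, and 0 lower. Their medians, 0.58 and 0.26, lay beside a Crot difference of 0.40 and 0.03. Of 14 analysed textbook target genes of PPARalpha, 9 were at least 1.5-fold higher and 2 lower between the negative libraries, and 8 and 2 between the positive ones, with medians of 0.87 and 0.64. The counts of lower target genes lie near the 17.5% and 11.6% of all genes.

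**Figure D4:**
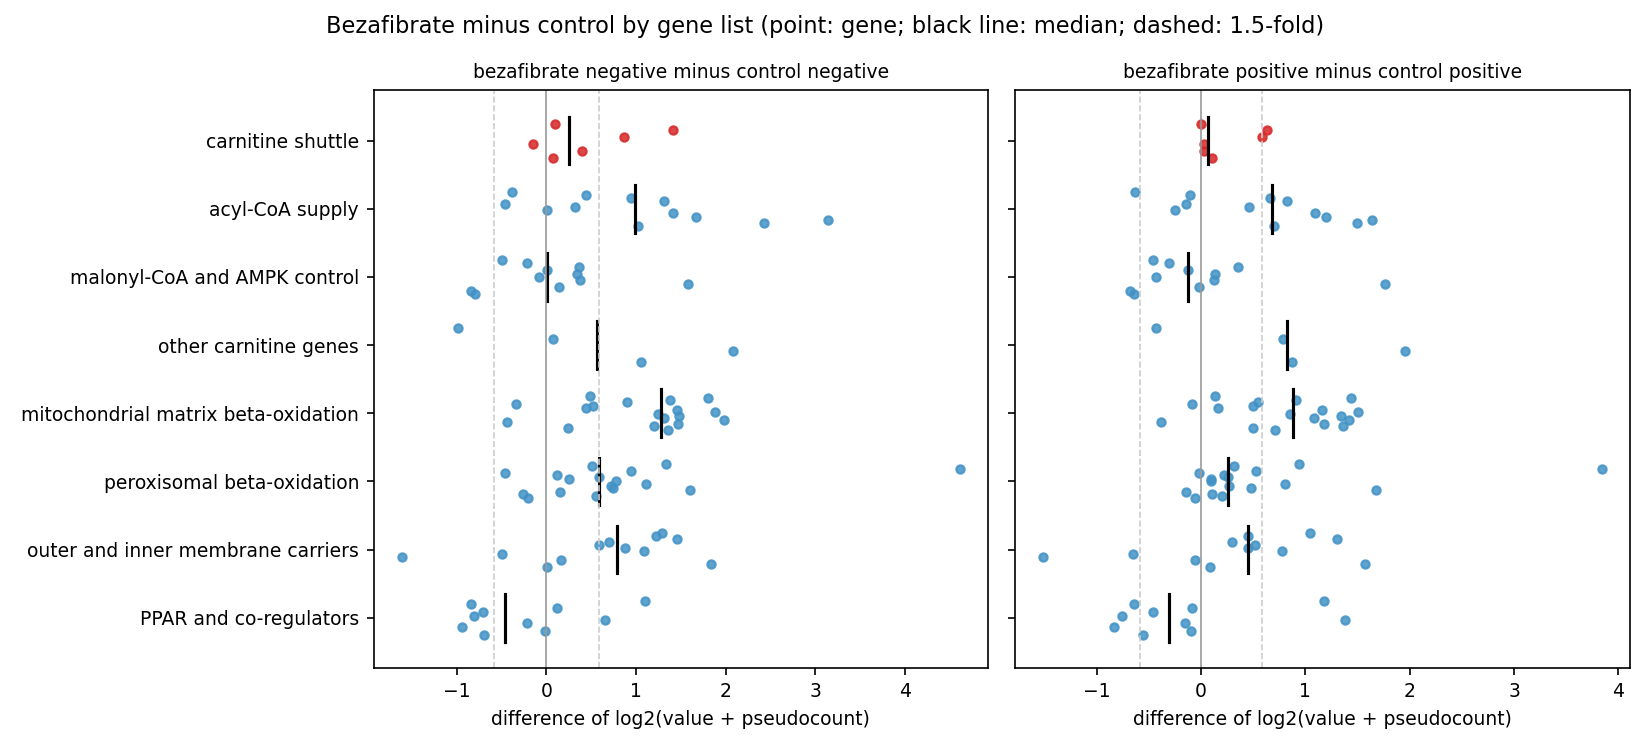
Difference of log2(value + pseudocount) between bezafibrate and control (x axis) for the genes of each list (y axis), in the negative gate on the left and the positive gate on the right, with black lines at list medians and dashed lines at 1.5-fold. The shuttle medians, 0.25 and 0.07, lie below those of matrix beta-oxidation, 1.28 and 0.88, and of acyl-CoA supply, 0.98 and 0.68.

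A model with terms for gate and for treatment, fitted to the 4 negative and positive libraries, called Cpt2 and Slc25a20 for treatment. Its single spare comparison, the gate difference between treatments, serves as the error, so its p-values do not rest on replicates. The share of members called for treatment was below that of all genes, so these calls say little about the set. With edgeR on the recovered reads, 4106 of 8973 genes were called for treatment at an adjusted p of 0.05, 2162 higher and 1944 lower, and 2 of 6 members, both higher. For the gate 11 genes were called, 4 higher and 7 lower, and 0 members, where 379 genes had an unadjusted p below 0.05.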

How the data were processed

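RNA was measured in 5 libraries of sorted hepatocytes, 1 per group, with groups taken from the labels. Ribosomal RNA was removed and strand-marking libraries were read from both ends, per the labels' protocols. The values are a normalised signal per gene symbol that the authors deposited in a single table. The submitters' processing notes name Trimmomatic 0.36, Bowtie2, RSEM, edgeR and the build mm10, with no role for any. The scaling and the annotation behind the table were not given in the sources used.

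In each library the deposited values are whole multiples of 1 step (100% of values, tolerance 0.001), and these multiples were taken as reads. They may be rounded estimates. Column totals lay between 910193 and 1119940. Genes with a mean of at least 5 pseudocounts were analysed, the pseudocount being a millionth of the mean column total, 1.004. Calls were made at 1.5-fold and 2-fold, and their shares over all genes stand beside the members' counts. Intervals are 95% Clopper-Pearson for ratios, Poisson for levels and normal approximation on the log scale for ratios of ratios. Reads lack molecular identifiers and so do not stand for separate molecules.

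Members and lists were chosen with earlier results of these data known. Genes named are the members, list genes by role or by extreme or highest values, and the 3 nearest profiles of each member, without provisional names. The genes Rn45s, Gm44502, Dolpp1 and Reln were named after their values or annotation were seen. Tools were edgeR 4.0.16 and limma 3.58.1 in R 4.3.3, and Python 3.11.15 with numpy 2.4.6, pandas 2.3.3 and scipy 1.17.1. Steps were tested on simulated data. GENCODE annotation of GRCm38, which is mm10, supplied positions and lengths and matched 95.8% of symbols. Alternatives were 2 other pseudocounts, 4 other scalings, 2 other filters and limma. TMM factors, also listed as an alternative, equal the deposited scaling.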

Additional observations from a re-analysis of the deposited data

Results flagged for a closer look

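Opposite signs of the same contrast were found for 3 members, in each case between single libraries, and the differences were not tested between replicates. The share of all genes with such opposite signs is not given here, so the count says nothing about the set. The gate difference of Cpt2, positive minus negative, was 0.13 in control and -0.65 in bezafibrate mice, a difference of -0.78 on the log2 scale. That of Crot was 0.03 and -0.33, a difference of -0.37. In control mice the counting interval of the gate ratio held 1 for Cpt2 (0.839 to 1.43) and for Crot (0.940 to 1.11). The treatment difference of Crat was -0.15 in the negative and 0.03 in the positive gate, a difference of 0.18, with counting intervals that held 1 in both gates. The opposite signs of Crat depend on the scaling, since it had 0.07 and 0.23 with column totals and -0.39 and -0.07 without Rn45s in the totals.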

How the results depend on the processing

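Of 252 differences of members recomputed with 6 other pseudocounts and scalings, 239 moved by less than their counting error and 13 by more. A sign changed in 13, with reported sizes of at most 0.15 on the log2 scale, and 0 of those past 1.5-fold changed sign. TMM factors gave the deposited scaling and could move nothing. In the comparison of bezafibrate with control, the median of the 6 members moved from 0.25 to 0.48 with column totals, 0.16 without the 100 highest genes and -0.0094 without Rn45s in the negative gate. In the positive gate it moved from 0.07 to 0.27 with column totals and -0.0354 without Rn45s. Between the positive and negative gates of bezafibrate mice it moved from -0.25 to -0.10 without Rn45s and -0.19 without the 100 highest genes. Between the high and negative gates it moved from -0.20 to -0.13 with column totals, -0.0821 without Rn45s and -0.14 without the 100 highest genes. The bezafibrate gate difference minus the control one moved from a median of -0.18 to -0.0424 without Rn45s. Each of these scalings also moved the median of all genes in the same comparison. Which scaling is right was not tested.

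In the positive gate, Cpt2 fell short of 1.5-fold with the larger pseudocount (0.57) and without Rn45s (0.52). Slc25a20 did so under these settings (0.51 and 0.48), without the 100 highest genes (0.57) and with median-of-ratios factors (0.57). Counts of genes past 1.5-fold or 2-fold over all genes were 1.30 to 14.2 times as large with no filter and 0.0769 to 0.625 times as large with the filter at 20, since other numbers of genes were analysed. The additive fit called 4064 genes for treatment and 8 for the gate with limma, against 4106 and 11 with edgeR, and 2 and 0 members with both. Of the 3 nearest genes, at least 2 were kept for each member with median-of-ratios scaling. No paired analysis was possible because the labels number no replicates and each group has 1 library. The model with gate and treatment terms compares 4 libraries that differ in gate or treatment, not pairs of replicates. Depth limits Crat and Slc22a5, with 60 to 121 reads in a library.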

Other observations

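Of 10 analysed genes of PPARs and their co-regulators, the bezafibrate negative library had 2 at least 1.5-fold higher and 5 lower than control negative, and the positive gate gave 2 and 3, where all genes gave 22.6% and 17.5%, and 15.7% and 11.6%. Ppara, the receptor whose targets include shuttle genes, had normalised read counts of 284 and 289 in the control and of 609, 658 and 656 in the bezafibrate negative, positive and high libraries. Ppargc1a, a coactivator of oxidative genes, ran the other way with 58.5, 57.6, 32.9, 33.6 and 27.7. Ppargc1b had 29.4, 20.3, 46.7, 54.4 and 56.0 in the same order, and Hnf4a, a hepatocyte transcription factor, 1032, 1008, 638, 686 and 695.

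Other mitochondrial carriers were mixed. Among 12 analysed, 8 passed 1.5-fold upward and 1 downward between the negative libraries, and 4 and 2 between the positive ones, beside the same shares of all genes. Slc25a5, an ADP/ATP carrier, had 46.2 and 39.0 in the control and 168, 118 and 151 in the bezafibrate libraries, and Vdac1, the outer membrane channel, 35.9, 39.9, 89.6, 83.2 and 84.5. Slc25a22, a glutamate carrier, had 435 and 414 against 141, 145 and 149.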
